A study of Mus musculus with 36 samples.

Results

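The genes of the circadian clock were examined for H3K9me3, trimethylation of lysine 9 on histone H3, a mark of silent chromatin, in mouse liver. The set was chosen by gene symbol: Clock, Arntl (also named Bmal1), Npas2, Per1, Per2, Per3, Cry1, Cry2, Nr1d1 and Nr1d2, which are 10 of the 22325 genes that the 6 deposited comparisons assign to at least 1 bin. A bin is a stretch of about 500 bp, or less, inside a peak of the mark. The 10 genes held 57 of 120683 bins in the comparison of 8 with 3 weeks of age in control females and 71 of 148133 in control males. In the comparison of maternal obesity (MO) with control they held 68 of 140214 bins in females and 82 of 159357 in males at 3 weeks, and 46 of 116257 in females and 42 of 102145 in males at 8 weeks. These are 366 entries in all. Each of the 10 genes had a bin in every comparison, with the exception of Clock in the male age comparison.

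Chromatin of liver tissue was immunoprecipitated with an H3K9me3 antibody and sequenced, giving 32 ChIP libraries, 4 from each combination of maternal diet, sex and age, beside 4 inputs. Control mice were born to dams kept on a control diet. MO mice were born to dams that received a Western-style diet before mating, through gestation and until weaning. Mice of 3 weeks were taken before weaning, and mice of 8 weeks had eaten chow since weaning. Offspring of both diets came from a colony with a floxed Reg3g allele, so controls carried it too. Whole liver was used, so the mark is an average over hepatocytes and the other cells of the organ.

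The clock is a feedback loop of transcription. CLOCK or its relative NPAS2 pairs with the Arntl product and binds E-box sequences to switch on the Per and Cry genes, whose proteins then enter the nucleus and restrain that pair. A second loop runs through the nuclear receptors encoded by Nr1d1 and Nr1d2 (REV-ERB alpha and beta), which repress Arntl, and in liver this machinery times the daily rhythm of lipid, bile acid and glucose metabolism. H3K9me3 is mostly found on repeats and on genes that a cell type keeps silent.

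The deposited tables give, for each bin, a log2 fold change, an average level in CPM (read counts scaled to library size), and the p-value of edgeR's exact test on 4 libraries per group with its FDR, the p-value adjusted over bins. They hold no value per library, so the spread between mice and the depth of each library are unknown here, and the overlap of groups cannot be shown. The 95% intervals below were approximated from each change and its p-value. For peaks longer than a bin, 1 bin per peak is listed and how it was chosen is not stated. The share of bins with an unadjusted p under 0.05 rises with the length of the peak, in the male age comparison from 17.4% in peaks of a single bin to 61.6% in the longest. As a check of the tissue, a promoter bin was present at 2 to 3 of 8 hepatocyte genes and at 5 to 6 of 8 genes that hepatocytes keep silent. Counting any bin assigned to the gene the lists were closer, at 6 to 7 of 8 and 8 of 8. The highest promoter level was 6.16 CPM on the first list and 10.1 CPM on the second.

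All 10 clock genes carried a peak of the mark, as did 80.2% of all protein-coding genes in females and 78.5% in males, and the extent of the peaks differed between the genes. Peaks covered 74.4% of Per1 in both sexes, 53.5% of Nr1d1 in females and 50.01% in males, and 39.8% and 37.5% of Cry2. Per2 was covered over 37.0% of its length in females and 54.5% in males, and Per3 over 26.6% and 23.7%. Coverage was lower for Arntl, over 18.8% and 21.6%, for Nr1d2, over 15.4% and 15.1%, and for Npas2, over 10.8% and 15.5%. Cry1 was covered over 6.98% in females and 3.18% in males. Clock was nearly bare, with 1.46% and 2.06%. The median over the 10 genes was 22.7% for female and 22.6% for male peaks. Over all protein-coding genes it was 9.21% and 9.39%, where genes without a peak count as uncovered. A peak lay within 1 kb of the start of 7 of the 10 genes in females and of 8 in males. The share among protein-coding genes was 64.7% and 65.4%. The genes without one in both sexes were Per1 and Nr1d1, whose peaks begin 3.61 and 3.44 kb past the outermost annotated start in females. Per1 has a further start, and its peak overlaps both RefSeq promoter windows of the gene in both sexes, whereas no peak reached the window of Nr1d1.

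**Figure D1:**
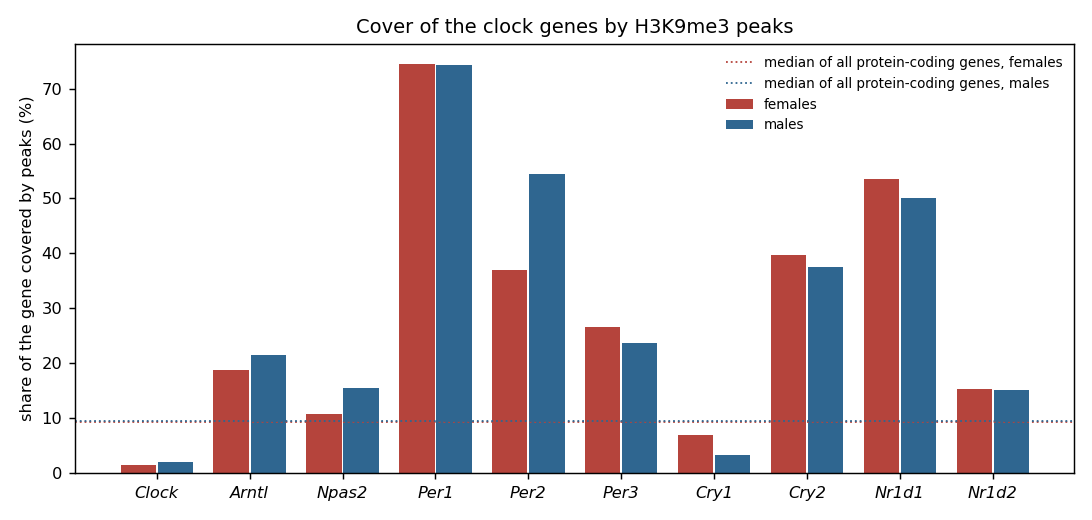
Share of each gene's length (percent, from the outermost annotated start to the end) covered by H3K9me3 peaks, in females and in males, for the 10 clock genes. Per1 stands highest at 74.4% in both sexes and Clock lowest, and the median of all protein-coding genes is 9.21% in females and 9.39% in males.

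Promoters of the clock genes carry the elements by which the loop closes on itself, so their sequences were set beside the peaks. RefSeq promoter windows of 300 bases (250 before to 50 after the start, GRCm38.p6) were found for 9 of the 10 genes, 13 windows in all, and 32851 windows of all genes served as the background. Searched on both strands were CACGTG (the E-box bound by CLOCK and NPAS2 with the Arntl product), TTATGTAA and TTACGTAA (D-boxes, bound by the PAR bZIP factors and their antagonist NFIL3) and TAGGTCA (the core of the element shared by ROR and REV-ERB receptors). No motif overlaps another in the windows shown. These 4 windows are shown because they hold a match, which is in capitals. A match describes the letters and is not a bound site. The strand is that of the gene.
Per3 promoter, chr4:151044616-151044915, minus strand: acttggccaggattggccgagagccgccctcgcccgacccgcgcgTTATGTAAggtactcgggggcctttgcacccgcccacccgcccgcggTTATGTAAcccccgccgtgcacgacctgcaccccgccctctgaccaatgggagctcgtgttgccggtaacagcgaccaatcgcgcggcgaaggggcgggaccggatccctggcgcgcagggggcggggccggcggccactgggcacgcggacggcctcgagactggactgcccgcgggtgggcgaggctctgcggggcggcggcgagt
Arntl promoter, chr7:113207261-113207560, plus strand: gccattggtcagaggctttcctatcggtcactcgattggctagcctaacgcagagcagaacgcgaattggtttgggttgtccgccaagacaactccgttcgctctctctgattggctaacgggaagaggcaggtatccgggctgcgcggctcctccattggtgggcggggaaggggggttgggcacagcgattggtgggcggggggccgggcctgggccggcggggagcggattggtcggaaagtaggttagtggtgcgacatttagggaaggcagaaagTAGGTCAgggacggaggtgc
Cry1 promoter, chr10:85185005-85185304, minus strand: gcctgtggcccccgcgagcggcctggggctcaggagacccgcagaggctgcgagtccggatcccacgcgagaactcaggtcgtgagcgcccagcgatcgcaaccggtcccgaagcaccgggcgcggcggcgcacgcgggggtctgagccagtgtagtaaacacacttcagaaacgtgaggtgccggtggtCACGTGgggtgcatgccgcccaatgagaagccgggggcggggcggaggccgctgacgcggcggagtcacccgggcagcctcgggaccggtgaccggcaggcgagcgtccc
Per1 promoter, chr11:69098699-69098998, plus strand: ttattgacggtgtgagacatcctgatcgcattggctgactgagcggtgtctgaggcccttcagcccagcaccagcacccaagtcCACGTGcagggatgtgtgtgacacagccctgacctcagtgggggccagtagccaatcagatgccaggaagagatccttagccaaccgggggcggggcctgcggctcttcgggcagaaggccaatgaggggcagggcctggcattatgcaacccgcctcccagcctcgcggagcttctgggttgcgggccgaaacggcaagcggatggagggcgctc
The Per3 window holds TTATGTAA 2 times, with first bases at positions -205 and -158 from the start. Of all windows, 0.938% hold this D-box, and 8 windows (0.0244%) hold 2 or more D-boxes of either form. The male peak covers both matches, whereas the female peak ends 47 bases short of the nearer one. The Arntl window holds TAGGTCA 30 bases after the start (2.61% of all windows hold it), inside the peaks of both sexes. CACGTG is in 7.15% of all windows, and among the clock genes in those of Cry1, at position -60 and inside the peaks of both sexes, and Per1, at position -166 and outside the peaks of both sexes. TTACGTAA is in 0.119% of all windows and in none of those of the clock genes.

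Promoter levels were compared between genes per length, as CPM per kb of the strongest promoter bin (within 3 kb of any annotated start), which averages both groups of a comparison. In the female age comparison Cry2 stood highest with 16.8 CPM per kb, followed by Per3 (16.3), Clock (15.5) and Cry1 (14.8), and the other 6 genes lay between 11.1 (Nr1d1) and 12.4 (Arntl). The median over all genes with a promoter bin was 14.6 CPM per kb, so 4 of the 10 genes lay above it. In the male age comparison 7 clock genes had a promoter bin. Per3 was highest (11.5 CPM per kb), followed by Nr1d2 (10.5), Per2 (9.92), Arntl and Cry1 (9.11 each), Cry2 (8.95) and Npas2 (8.52), against a median of 10.6 over all genes. Only Per3 lay above that median in males. Some of these bins are at inner starts. Past the gene's outermost start, the Per3 bin of males lies 26.5 kb, the Arntl bin of males 24.7 kb and the Cry1 bin of females 38.7 kb. For MO, 3 or 4 clock genes lay above the median of each table, out of 8 to 10 with a promoter bin. Whether neighbours in these orders differ cannot be tested without values per library. Tables were scaled separately, so levels are not compared between them.

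**Figure D2:**
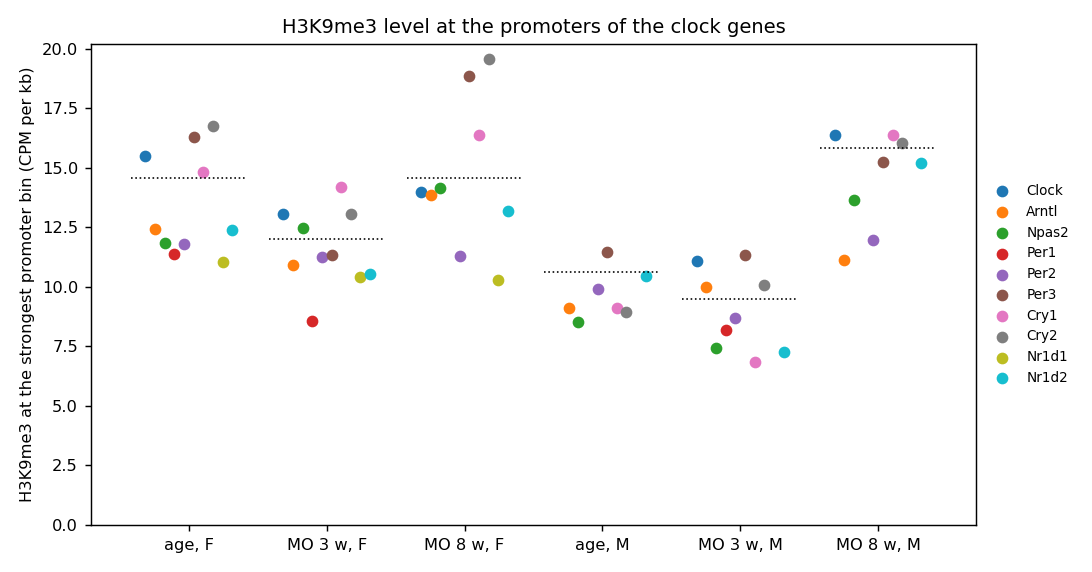
Level of H3K9me3 (CPM per kb, averaged over both groups of a comparison) in the strongest promoter bin of each clock gene, for the 6 comparisons, with the dotted line at the median over all genes with a promoter bin. Cry2 is highest in the female age comparison at 16.8 CPM per kb, where the median of all genes is 14.6.

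Cry2, which encodes a repressor of the loop, had the highest clock promoter level in the MO comparison of females at 8 weeks too (19.6 CPM per kb). In the other MO comparisons other genes were highest. These were Cry1 in females at 3 weeks (14.2), Per3 in males at 3 weeks (11.4) and Clock in males at 8 weeks (16.4). The 3 genes whose strongest promoter bins were most like those of Cry2 over the 6 comparisons, among 11437 genes with a promoter bin in each, were Mrps24, Mcub and Stk40, at Euclidean distances of 0.166, 0.188 and 0.196 in log2 CPM.

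The first comparison asked how the mark changed from 3 to 8 weeks in control mice. A positive change is a higher level at 8 weeks. In females 3 of the 57 clock bins had an FDR under 0.05 (5.26%), against 2.72% of all bins. Of these, 1 was higher (1.49% of all bins were called higher) and 2 were lower at 8 weeks (1.23% of all bins). In males 4 of 71 bins passed (5.63%), against 4.41% of all bins. Here 1 was higher (2.42% of all bins) and 3 were lower (1.99% of all bins). In each sex 2 of the lower bins lay in intron 2 of Arntl, and the highest-ranking gain of females was at the promoter of Per3. Over the list as a whole, 40 of the 57 bins of females had a negative change (70.2%, against 51.9% of all bins), with a median log2 change of -0.18 against -0.03. In males it was 41 of 71 bins (57.7% against 52.4%), with a median of -0.18 against -0.05. At an unadjusted p under 0.05 there were 15 bins in females (26.3%, against 17.5% of all bins) and 11 in males (15.5%, against 21.8%).

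In the age tables the change rises with the GC content and the level of a bin. When the median change of bins of like GC content and level was subtracted, none of the 7 called clock bins kept an FDR under 0.05 (recomputed FDR 0.0617 to 0.140 in females and 0.0946 to 0.283 in males). All bins called fell from 3285 to 1147 in females and from 6527 to 2489 in males. The changes themselves stayed in part: the 7 bins kept their signs, and the recomputed log2 changes of the Arntl bins were -1.29 and -1.41 in females and -1.03 and -1.33 in males. Those of the other called bins, described below, were 0.91 at Per3, -1.05 at Cry2 and 0.92 at Nr1d2. How much of each change belongs to the trend was not tested further. The female share of clock bins with a negative change fell from 70.2% to 57.9%.

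The sign of the change was then set against the place in the gene. Over all promoter bins of the clock genes (within 3 kb of any start), 10 of 17 were positive in females, with a median log2 change of 0.05 that equals the 0.05 of all promoter bins, and 10 of 16 in males (median 0.23, against 0.12). Of bins within 1 kb of the gene's own outermost start, 6 of 7 were positive in females (median log2 change 0.52) and 7 of 7 in males (median 0.52). Clock bins within 1 kb of a further start only are not among these. Those left out include Cry2 (-1.17), Per2 (-0.85), Nr1d1 (-0.78) and Per1 (0.72) in females and Cry2 (-0.43) in males. Bins in gene bodies were negative in 27 of 31 cases in females (median -0.25) and in 30 of 43 in males (median -0.35). Most of the negative gene body bins lay in Arntl (12 of 13 bins negative in females, 12 of 15 in males) and Npas2 (7 of 7 and 11 of 13). The other genes were mixed in males, with 3 of 4 negative at Per2 and 3 of 4 positive at Per3. Bins of 1 gene are not independent cases. Over all bins of the tables the same signs were in the majority, for gene bodies by smaller margins. Of all bins within 1 kb of any annotated start, 59.2% were positive in females (median 0.16) and 63.7% in males (median 0.29). These take in inner starts, so they are not a like set to the start bins of the clock genes. Of all gene body bins 56.9% and 56.8% were negative (medians -0.10 and -0.13). The start bins of the clock genes are rich in GC, with a median of 73.3% in females (60.1% for all start bins) and 71.5% in males (58.9%). With the trend of GC content and level subtracted, 4 of 7 start bins stayed positive in each sex and the medians were 0.14 and 0.00.

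**Figure D3:**
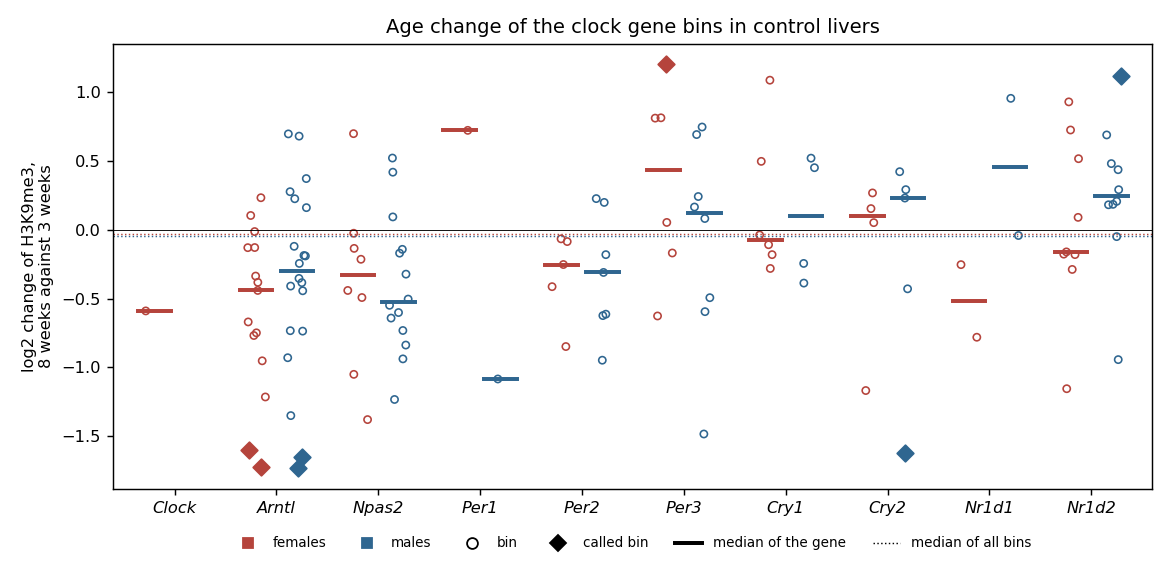
Log2 change of H3K9me3 from 3 to 8 weeks (positive is higher at 8 weeks) in each bin of the 10 clock genes, for control females and control males. Circles are bins, diamonds bins with an FDR under 0.05, thick bars the median of a gene, and the dotted line the median of all bins (-0.03 in females and -0.05 in males). The diamonds below the line are 4 bins of Arntl and 1 of Cry2, and those above it are at Per3 in females and Nr1d2 in males.

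Arntl encodes the partner that CLOCK and NPAS2 require, and its loss stops the clock. It held 15 bins in the female and 20 in the male age comparison. Their levels were 5.29 to 6.56 CPM in females and 3.14 to 5.36 CPM in males. The change was negative in 13 of 15 bins in females (median -0.44, range -1.73 to 0.23) and in 14 of 20 in males (median -0.30, range -1.73 to 0.70). Intron 2 of 19 held 6 bins in females, all of them negative (median -0.55), and 9 in males, of which 7 were (median -0.24).

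The called bins of Arntl lay at different places in the sexes, for which peaks and bins were set separately (58983 of the 120683 female bins in the whole table have a male bin that overlaps by at least 50%). In females they were chr7:113261169-113261609 (mm10; log2 change -1.60, 95% interval -2.39 to -0.81; FDR 0.00939, 5.75 CPM) and chr7:113267469-113267969 (log2 change -1.73, interval -2.55 to -0.90; FDR 0.00581, 5.33 CPM), 53.9 and 60.3 kb past the start. These are levels 3.03-fold and 3.31-fold lower at 8 weeks. In males they were chr7:113237767-113238267 (log2 change -1.65, interval -2.62 to -0.68; FDR 0.0333, 3.27 CPM) and chr7:113243846-113244346 (log2 change -1.73, interval -2.62 to -0.85; FDR 0.00984, 3.82 CPM), 30.6 and 36.6 kb past the start. All 4 have a GC content between 50.7% and 52.9%. Soft-masked repeat sequence made up 29.0% and 10.2% of the female bins and 63.5% and 12.6% of the male bins.

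The central 300 bases of the bin with the smallest FDR in each sex are shown (plus strand, GRCm38.p6), with CpG dinucleotides, the sites of DNA methylation, in capitals. Each stretch holds 1 CpG, whereas the Arntl promoter window above holds 22 and the Per3 window 41.
Arntl intron 2, lower at 8 weeks in females, chr7:113267569-113267868: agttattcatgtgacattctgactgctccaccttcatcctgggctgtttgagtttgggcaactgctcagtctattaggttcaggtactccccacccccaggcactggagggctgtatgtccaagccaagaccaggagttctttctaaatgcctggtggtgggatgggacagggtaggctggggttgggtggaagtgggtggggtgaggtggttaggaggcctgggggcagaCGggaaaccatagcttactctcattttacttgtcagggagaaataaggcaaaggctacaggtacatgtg
Arntl intron 2, lower at 8 weeks in males, chr7:113243946-113244245: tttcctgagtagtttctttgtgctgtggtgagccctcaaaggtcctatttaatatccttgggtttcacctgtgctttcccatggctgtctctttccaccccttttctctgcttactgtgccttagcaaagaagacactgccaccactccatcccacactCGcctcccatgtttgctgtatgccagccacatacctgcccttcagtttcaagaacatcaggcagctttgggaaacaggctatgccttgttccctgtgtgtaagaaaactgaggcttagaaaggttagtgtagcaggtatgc

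The places called in one sex were compared with the nearest peak of the other. At the female site at 113261169, the listed male bin overlaps it by 68 bp and had a log2 change of 0.28 (p = 0.540 by edgeR's exact test, unadjusted). At the other female site the listed male bin, which does not overlap it, had -0.24. At the male site at 113237767 the listed female bin, which overlaps it by 44 bp, had -0.44 (p = 0.261 by edgeR's exact test, unadjusted), and at the other male site the nearest female bin, which does not overlap, had -0.13. The listed bins of the sexes thus share little or no sequence at these places. At the start of the gene the female bin had 0.11 (interval -0.64 to 0.85; FDR 0.996) and the male bin 0.68 (interval -0.09 to 1.45; FDR 0.416). With the trend of GC content and level removed these were -0.28 and 0.17, so the sign in females turns with that setting. A bin annotated to a promoter but 96.7 kb past the first start had -1.22 in females (p = 0.00236, FDR 0.0771 in edgeR's exact test), and a further intron 2 bin had -1.35 in males (FDR 0.0720).

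**Figure D4:**
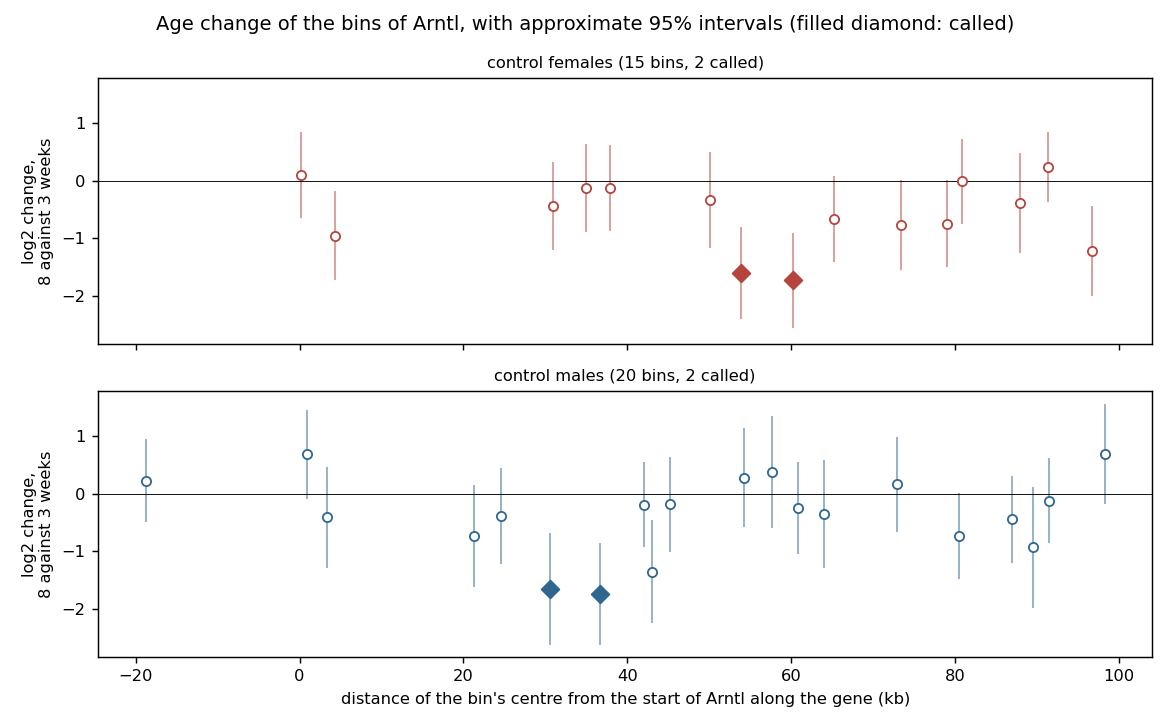
Log2 change of H3K9me3 from 3 to 8 weeks along Arntl, by distance from the gene start in kb, in control females (red) and control males (blue). Each symbol is a bin with its approximate 95% interval, and diamonds have an FDR under 0.05. The called bins lie 53.9 and 60.3 kb past the start in females and 30.6 and 36.6 kb in males, all in intron 2.

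Npas2 encodes a relative of CLOCK that can take its place beside the Arntl product. Its 8 bins in females and 14 in males were mostly negative, in 7 and 11 cases, with medians of -0.33 and -0.53, and none passed the FDR. The lowest in females was in intron 4 of 20 (log2 change -1.38, FDR 0.149) and the lowest in males in intron 2 of a short transcript (-1.23, FDR 0.192). The promoter bin had the opposite sign, with 0.70 in females (interval -0.11 to 1.51) and 0.52 in males (-0.24 to 1.29). Both intervals include no change, and with the trend removed the values were 0.53 and 0.02. Clock itself held only a promoter bin in the female table (chr5:76303690-76304190; log2 change -0.59, interval -1.24 to 0.06; FDR 0.437). Among bins within 1 kb of the outermost start of a clock gene, it is the only one with a negative value in females. No Clock bin is listed for males.

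Among the period genes, whose proteins carry the negative arm of the loop, Per3 had the called gain. Its promoter bin in females (chr4:151044212-151044712, in a peak of 558 bp, 68.1% GC, 8.16 CPM) had a log2 change of 1.21 (interval 0.58 to 1.84; FDR 0.0159), a level 2.31-fold higher at 8 weeks. It includes the start and part of the promoter window printed above, upstream of which lie the D-boxes. A bin in exon 20 of 21 (0.82, FDR 0.160) and one in the 3′ UTR (0.81, FDR 0.264) of Per3 were also positive in females but did not pass. In males the promoter peak's listed bin had 0.24 (interval -0.60 to 1.08; FDR 0.910) at 3.82 CPM, and the median of 8 Per3 bins was 0.13, against 0.43 over 6 in females. The lowest male bin assigned to Per3 had -1.48 (FDR 0.101) and lies in an intron of a transcript of Camta1.

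Per1 is an immediate responder to light, feeding and glucocorticoids. It held a single peak of 10974 bp in females and 10968 bp in males that covers the gene from its inner start to near its end, and the listed bin differed from table to table. The age bin in females was at the upstream end of the peak (log2 change 0.72, interval -0.05 to 1.496; FDR 0.410), and that in males was in the 3′ UTR (-1.08, interval -1.96 to -0.21; FDR 0.185). These are different places of the same peak, so the opposite signs are no difference between the sexes at 1 site. All 5 bins of Per2 were negative in females (median -0.25) and 5 of 7 in males (median -0.31), with no FDR below 0.274 in females or 0.360 in males.

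The cryptochromes, the strongest repressors of the CLOCK complex, had positive start bins in both sexes as deposited. With the trend of GC content and level removed, the Cry1 bin of females stayed at 0.71, whereas the Cry1 bin of males turned to -0.01 and the Cry2 bins to -0.03 in females and -0.08 in males. At Cry1 the bin over the start (chr10:85184794-85185294, 73.7% GC), which includes the E-box printed above, changed by 1.09 in females (interval 0.33 to 1.85; p = 0.00501, FDR 0.118 in edgeR's exact test) and the male bin there had 0.52 (interval -0.23 to 1.27; FDR 0.574). At Cry2 the start bins had 0.27 (FDR 0.839) and 0.42 (FDR 0.722). A second promoter bin of Cry2, 2.11 kb past the start, had -1.17 in females (FDR 0.165). The called bin assigned to Cry2 in males (chr2:92423327-92423827; log2 change -1.63, interval -2.57 to -0.69; FDR 0.0299) lies within the bounds of Cry2 but in intron 3 of 3 of D930015M05Rik by the deposited annotation. Its level of 3.20 CPM was at percentile 3.57 of the table.

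Of the REV-ERB genes, Nr1d1 held a peak of 11305 bp in females and 9198 bp in males that covers the 3′ part of the gene and reaches into the neighbouring Thra. The nearest peak lay 3437 bp from its RefSeq promoter window in females and 3695 bp in males. The listed bins were again at different places, with -0.78 in females (FDR 0.425) and 0.96 in an exon of Thra in males (FDR 0.188). Nr1d2 had positive bins at its start in both sexes (0.52, FDR 0.621 and 0.69, FDR 0.353). Its peak in intron 1 was negative in both, with -1.15 in females (interval -1.91 to -0.40; FDR 0.0831) and -0.94 in males (interval -1.73 to -0.16; FDR 0.202), at bins of the same peak that do not overlap. The called bin assigned to Nr1d2 in males is intergenic, 92.4 kb from the start of the gene (chr14:18146443-18146921; log2 change 1.12, interval 0.45 to 1.79; FDR 0.0375), and 96.5% of it is soft-masked repeat. The female bin there had 0.93 (FDR 0.182).

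Whether the change with age differed between the sexes was tested at 19 pairs of female and male clock bins that overlap by at least 50% of the shorter bin. The difference of the log2 changes was tested with standard errors approximated from the deposited p-values and adjusted over all 58983 pairs of the tables. None of the 19 passed an adjusted p of 0.05, as in the whole tables (0.00% of pairs), and none had an unadjusted p under 0.05, against 6.92% of all pairs. The smallest adjusted p was 0.793. Only 1 of the 7 bins called with age, the intergenic one of Nr1d2, is among these pairs, so the called bins of Arntl, Per3 and Cry2 were not tested at this overlap. At the Cry1 promoter the difference of females minus males was 0.57 (interval -0.50 to 1.64) and at the intergenic Nr1d2 bin -0.19 (interval -1.17 to 0.80), which leaves room for differences of about the size of the changes themselves. With bins that overlap by any length there were 29 pairs, which take in 5 of the 7 called bins, and 0 passed, with a smallest adjusted p of 0.276, while 16 of all 68373 pairs did. Of the 29, 2 had an unadjusted p under 0.05, a share below the 7.91% of all pairs. Both were at called bins and over short overlaps: the Arntl bin at 113261169 (females minus males -1.88, interval -3.05 to -0.71, over 68 bp) and the Cry2 bin (1.78, interval 0.57 to 2.998, over 32 bp).

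The second comparison asked whether MO changed the mark. A positive change is a higher level in MO offspring. No bin of these tables reached an FDR of 0.05, so bins were called at an unadjusted p under 0.001. One clock bin passed in males at 3 weeks (1 of 82, or 1.22%, against 0.278% of all bins). None of the 68 bins of females at 3 weeks passed (0.211% of all bins), nor the 46 of females (0.162%) or the 42 of males at 8 weeks (0.114%). The smallest FDR of a clock bin was 0.806, 0.519, 1.00 and 1.00 in females and males at 3 weeks and females and males at 8 weeks. At an unadjusted p under 0.05 there were 5 clock bins in females at 3 weeks (7.35%, against 7.72% of all bins) and 4 in males (4.88% against 8.83%). At 8 weeks there were 0 in females (against 7.00%) and 4 in males (9.52% against 6.50%). The medians of the clock bins were -0.03, 0.06, -0.08 and 0.05 in the same order, against -0.01, 0.03, 0.01 and 0.00 over all bins. The medians lay within 0.1 of those of the whole tables. The shares at p under 0.05 were below the background in 3 of the 4 comparisons and above it in males at 8 weeks.

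**Figure D5:**
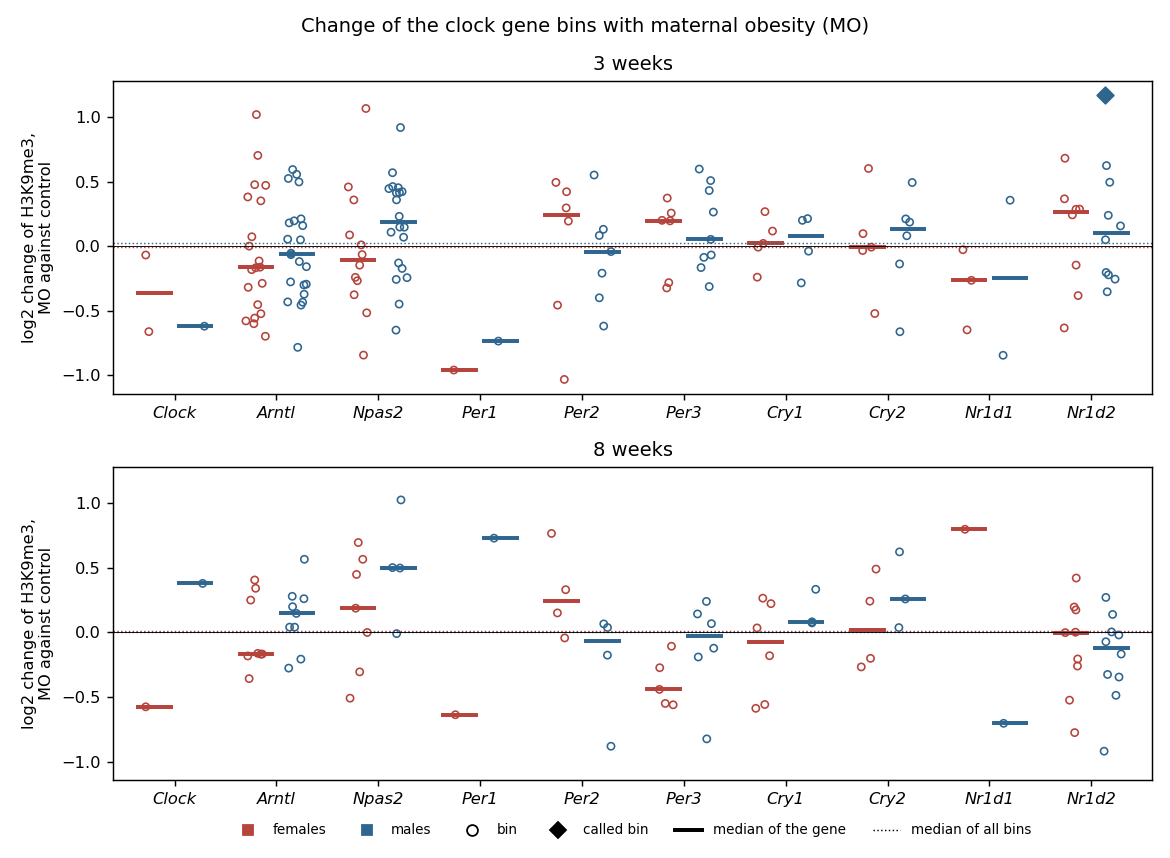
Log2 change of H3K9me3 with MO (positive is higher in MO offspring) in each bin of the 10 clock genes, in females and males at 3 and 8 weeks. Circles are bins, the diamond a bin with an unadjusted p under 0.001, thick bars the median of a gene and dotted lines the median of all bins. The single diamond is at Nr1d2 in males at 3 weeks, at 1.17.

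The called bin lies in intron 1 of 7 of Nr1d2, 9.15 kb past the start (chr14:18229727-18230227). It had 5.29 CPM on average and a log2 change of 1.17 with MO (interval 0.52 to 1.81; p = 0.00038, FDR 0.519 in edgeR's exact test), a level 2.25-fold higher. It is 1 bin of a peak of 4774 bp, and 32.7% of it is soft-masked. Its central 300 bases are shown because they are the one place of a clock gene that passed the threshold for MO (minus strand, that of the gene, GRCm38.p6; CpG in capitals, 7 in number).
Nr1d2 intron 1, higher with MO in males at 3 weeks, chr14:18229827-18230126: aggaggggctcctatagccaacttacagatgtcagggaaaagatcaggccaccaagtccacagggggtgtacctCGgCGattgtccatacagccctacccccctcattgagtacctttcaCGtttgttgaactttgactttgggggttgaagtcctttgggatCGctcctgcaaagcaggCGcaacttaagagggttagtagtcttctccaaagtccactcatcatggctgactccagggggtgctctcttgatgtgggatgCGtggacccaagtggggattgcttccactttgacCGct
In the same peak the listed bins had log2 changes with MO of 0.29 in females at 3 weeks (FDR 1.00), -0.78 in females at 8 weeks (p = 0.0960 by edgeR's exact test, unadjusted) and -0.17 in males at 8 weeks. The age and MO tables of a sex share control libraries, so the lower value at 8 weeks in control mice at this peak (-1.15 in females and -0.94 in males) is not independent of these.

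No other clock bin passed the threshold. For the activators, Arntl had medians of -0.16 and -0.06 in females and males at 3 weeks and -0.17 and 0.15 at 8 weeks. Its intron 2 bins had medians of 0.00 and -0.17 at 3 weeks. The bins called with age in females had -0.60 and -0.56 with MO at 3 weeks. They were called on a high value in the 3-week control libraries, which are also the controls here, so a negative value is given by that choice in part and nothing is read from it. Another intron 2 bin had 1.02 (p = 0.00898 by edgeR's exact test). Npas2 had medians of -0.11 in females and 0.19 in males at 3 weeks, with 5 of 12 and 14 of 20 bins positive. At 8 weeks its medians were 0.19 and 0.50. Single bins of Npas2 at 3 weeks had 1.07 in females (p = 0.00562, edgeR's exact test, unadjusted) and 0.92 in males (p = 0.00972, edgeR's exact test). Both lie in introns, 60.3 and 17.5 kb past the start. At Clock the listed promoter bin was negative in 3 of the 4 tables, with -0.66 and -0.62 at 3 weeks in females and males, -0.58 in females at 8 weeks and 0.38 in males. Each of these intervals includes 0.

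For the repressors, all 5 bins of Per3 were negative with MO in females at 8 weeks (median -0.44), among them the promoter bin that had risen with age (-0.55, interval -1.17 to 0.07). Since that bin was called on a high value in the same 8-week control females, a negative value here is given in part by the choice, and nothing is read from it. The same bin had 0.26 at 3 weeks (p = 0.548 by the exact test), and the male bins at the start of Per3 had -0.17 and 0.24 at 3 and 8 weeks. Another promoter bin of Per3, 14.6 kb past the start, had -0.82 in males at 8 weeks (p = 0.0424, edgeR's exact test, unadjusted). Per2 had -1.03 in intron 14 of 22 in females at 3 weeks (p = 0.0143, unadjusted) and -0.88 at its promoter in males at 8 weeks (p = 0.0404, edgeR's exact test, unadjusted). The Per1 peak had -0.96 and -0.73 at 3 weeks and -0.64 and 0.73 at 8 weeks in females and males, at 4 different bins. At the Cry1 promoter the values were 0.12 and -0.28 at 3 weeks and -0.59 and 0.33 at 8 weeks, and at the Cry2 promoter -0.03 and 0.49, then 0.24 and 0.62. Both cryptochromes were positive in males at 8 weeks with intervals that include 0. Nr1d1 had -0.65 and -0.84 at 3 weeks and 0.80 and -0.70 at 8 weeks, at different bins of its long peak. The intergenic Nr1d2 bin called with age in males had -0.92 with MO in males at 8 weeks (FDR 1.00) and 0.24 at 3 weeks. The 8-week control males on which it was called are the controls of that comparison as well, so these values are not independent of the call.

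The change with MO was also compared between sexes and ages at overlapping bins, added after the data had been seen. Among 21 pairs of clock bins between the sexes at 3 weeks, 22 at 8 weeks, and 34 and 28 pairs between the ages in females and males, 0 passed an adjusted p of 0.05, as was so for all pairs of these tables, with smallest values of 0.819, 0.892, 0.927 and 0.808. At an unadjusted p under 0.05 there was 1, where 6.42%, 5.69%, 5.53% and 5.94% of all pairs were, in the same order. It was the intergenic Nr1d2 bin in males (3 weeks minus 8 weeks 1.16, interval 0.15 to 2.17), which was called with age on control libraries that both of these MO comparisons use.

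Beyond the 10 core genes, 36 further genes of the clock were listed, among them the PAR bZIP factors, casein kinases, ubiquitin ligases of PER and CRY, and the REV-ERB corepressor, and 35 of them had a bin. In the female age comparison 9 of 204 bins passed an FDR of 0.05, 3 higher and 6 lower at 8 weeks (4.41%, against 2.72% of all bins). In males 11 of 285 passed, 6 higher and 5 lower (3.86%, against 4.41%). The median changes were -0.05 and -0.13. The smallest FDR was at the promoter of Huwe1, a ubiquitin ligase encoded on the X chromosome, in females (log2 change 1.20, FDR 7.73e-05), which kept an FDR of 0.0436 with the GC and level trend subtracted. An intergenic bin of Ppargc1a, a coactivator of liver metabolism, in females did so too (log2 change 1.24, FDR 0.0379 as deposited and 0.0309 recomputed), and is named here after its values were seen. The remaining female bin called higher is intergenic and also assigned to Huwe1 (0.91, FDR 0.0299 as deposited and 0.317 recomputed). The paper reports a far larger share of age-changed peaks on the X chromosome in females than in males. Others were an intergenic bin of Nfil3, the D-box repressor (-1.95, FDR 0.00593), beside a bin assigned to Nfil3 in an exon of Ror2 with the opposite sign (1.18, FDR 0.0125), one of Noct, whose RNA cycles in liver (1.37, FDR 0.00716), one of Nampt, the enzyme that sets the NAD supply (-1.87, FDR 0.0169), and the promoter of Btrc, a ubiquitin ligase for PER proteins (1.39, FDR 0.0172), all in males. Lower bins were also called in females for Nfil3 (-1.46, FDR 0.0205 and -1.63, FDR 0.0266) and Nampt (-1.38, FDR 0.0413). The intergenic bins lie far from the genes they are assigned to, at a deposited distance from the start of -18217 bp for the male Nfil3 bin with the smallest FDR, -141052 bp for Noct, -109894 bp for the male Nampt bin and 546689 bp for Ppargc1a. With the trend subtracted none of the 11 male bins kept its call (recomputed FDR 0.110 to 0.293), and 7 of the 9 female bins lost theirs. With MO, 1 of 309 bins (0.324%, against 0.278% of all bins) passed p under 0.001 in males at 3 weeks and 0 in the other 3 comparisons. It was assigned to Ppp1cb and located in a transcript of Gm15614 (1.45, p = 5.6e-05 by edgeR's exact test, unadjusted).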

How the data were processed

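H3K9me3 ChIP-seq was measured in liver of 32 offspring in 8 groups of 4, with 4 inputs that were not used here. By the methods of the study, the authors mapped reads to mm10/GRCm38 with BWA and called broad peaks with MACS2 outside blacklisted regions. Peaks present in at least 3 replicates of a condition were kept and merged per sex. The authors counted reads in bins of 500 bp with featureCounts and ran edgeR's exact test. The authors annotated peaks by genomic feature with ChIPseeker, and the gene given to each bin is used here as deposited. The authors deposited the fold change and the average CPM as log2 values, and the p-value and its Benjamini-Hochberg FDR as probabilities. These are the authors' comparisons, used here as deposited and as planned because no value per library is in the tables. A count model was planned only if such values were found, and was not run. The labels number the libraries of a group and do not say whether mice shared a litter, so the p-values measure the spread between these samples.

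The sign of the age tables was turned so that positive is higher at 8 weeks. Age bins were called at an FDR under 0.05 and MO bins at p under 0.001, not adjusted. Standard errors were approximated as the change divided by the normal quantile of its p (for p of 0.5 or more, as the median error of bins of like level, in 100 percentile groups), and intervals are 1.96 errors to each side. They cover what the deposited p covers and were not computed from mice. The trend was removed by subtracting the median change of each of 10 GC and 10 log2 CPM deciles, with GC content from GRCm38.p6. Bins were named by symbol, and per gene and table the bin with the highest level, the bin with the smallest p, promoter bins (within 3 kb of a start) and called bins were considered. Of the further clock genes, the 5 with the smallest FDR in an age table are named, with Ppp1cb for MO, and Ppargc1a was added after its values were seen. Members and lists were chosen with earlier results of these data known. Promoter sequences are from RefSeq (GRCm38.p6). The functions were tested on simulated data. Python 3.11.15 with numpy 2.4.6, pandas 2.3.3, scipy 1.17.1 and matplotlib 3.10.9 was used. Alternatives were other thresholds, adjustment over the listed bins alone, bins above the median level, removal of the trend, intergenic bins left out and other overlaps. Peaks of a single bin and bins inside another gene's transcript were added after seeing the data.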

Additional observations from a re-analysis of the deposited data

How the results depend on the processing

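The count of clock bins called with age in females, 3, became 5 at an FDR under 0.1, and 1 among bins with a level above the median and 1 in peaks of a single bin. In males the count of 4 became 1 at an FDR under 0.01, 1 above the median level and 1 in peaks of a single bin. With the trend of GC content and level removed it was 0 in both sexes. For MO at p under 0.01 there were 2 bins in each sex at 3 weeks and 1 in 8-week males. In males at 3 weeks it was 0 at p under 0.0001 and 0 in peaks of a single bin. The other alternatives left the counts within 1.5 times. No called bin changed sign when the trend was removed, the only alternative that recomputed the change of a bin. Of the 7 bins called with age, each lost its call when the trend was removed, and the bins of Per3, Cry2 and Nr1d2 and the Arntl bin at 113237767 did at an FDR under 0.01. The cause was not tested.

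Leaving out replicates in turn was not possible with tables that hold no value per library. No paired analysis was possible because the tables carry no column per replicate. No pair of clock bins had identical coordinates in both sexes, and that overlap setting gave no value. The depth of each library is unknown here, and the wide intervals of single bins limit the changes that are detectable.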
